A study of Mus musculus with 27 samples.

Results

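The 9 genes described here are 8 transcription factors of retinal ganglion cells, Pou4f1 (Brn3a), Pou4f2 (Brn3b), Pou4f3 (Brn3c), Isl1, Ebf1, Ebf3, Dlx1 and Dlx2, together with Rbpms, an RNA-binding protein widely used as a marker of the same cells. They were taken by gene symbol from the 38168 features of the expression table, and for Ebf1, whose symbol stood at 2 entries, the more abundant entry was taken. Whole retinas of wild type C57BL/6J mice were profiled by RNA-seq at 7 ages: embryonic day 14 (E14, n = 3 libraries), E17 (n = 3), postnatal day 1 (P1, n = 4), P6 (n = 3), P15 (n = 4), P28 (n = 4) and P60 (n = 6). All animals were untreated and tissue was taken in the light phase. By the study's methods, E14, E17 and P1 tissue was of mixed sex and later tissue was from males. Comparisons of ages up to P1 with later ages therefore cannot tell age and sex apart. Each library was a pool of retinas or, for some libraries at P60, came from a single mouse, so a library averages over all cell types of the tissue. Values are CPM, the reads of a gene scaled to the total of its library. The totals recovered from the CPM were 7077781 to 11332323 counted reads per library with a median of 7969873. These are fewer than the reads that the study's methods state were collected per library. Across features, the lowest Pearson r between libraries of an age was 0.977 or above, except at P60, where it was 0.940. The tissue label was checked against markers: all 26 genes of a list of rod and cone photoreceptor markers were listed, and their summed share rose from 0.0611% to 0.0650% of reads at E14 to 4.97% to 5.66% at P60.

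Retinal ganglion cells are the output neurons of the retina and among the first neurons that its progenitors produce. In the embryonic retina the basic helix-loop-helix factor Atoh7 makes progenitors competent to form ganglion cells, and Pou4f2 and Isl1 then act together on the genes of ganglion cell differentiation, axon growth and survival. Pou4f1 and Pou4f3 are paralogs of Pou4f2 that are used by subsets of ganglion cells, Ebf factors act downstream in differentiation, and Dlx1 and Dlx2 are homeodomain factors expressed in progenitors and newborn inner retinal neurons that promote Pou4f2 expression. Isl1 is also used outside ganglion cells, in ON bipolar cells and in cholinergic (starburst) amacrine cells, and Ebf factors are found in subsets of amacrine and bipolar cells.

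Sequence before the start site is shown for 5 members, chosen so that the POU, LIM, EBF and DLX families are each represented: Pou4f1 peaked at E17, Pou4f2, Ebf3 and Dlx2 were highest at E14, and Isl1 had a second peak at P6. RefSeq promoter sequences (build GRCm38.p6) were matched for 7 of the 9 members with 8 promoters in all. Each line gives the 250 bases before the start site on the gene's strand, 5′ to 3′, with capitals at every match to the E-box CANNTG, the homeodomain core TAATTA or the EBF core CCCNNGGG on either strand. The windows are chr14:104468000-104468249 (minus strand) for Pou4f1, chr8:78436648-78436897 (minus) for Pou4f2, chr13:116309689-116309938 (minus) for Isl1, chr7:137314446-137314695 (minus) for Ebf3 and chr2:71546755-71547004 (minus) for Dlx2. The Ebf3 window lies inside the gene interval given below, so it precedes an internal start site. The Pou4f1 window overlaps the interval of its gene in part.
Pou4f1: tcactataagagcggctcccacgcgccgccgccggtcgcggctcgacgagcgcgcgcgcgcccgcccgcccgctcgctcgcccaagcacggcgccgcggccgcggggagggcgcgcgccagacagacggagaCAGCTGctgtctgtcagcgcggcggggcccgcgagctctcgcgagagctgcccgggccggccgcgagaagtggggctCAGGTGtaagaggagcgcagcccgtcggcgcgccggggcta
Pou4f2: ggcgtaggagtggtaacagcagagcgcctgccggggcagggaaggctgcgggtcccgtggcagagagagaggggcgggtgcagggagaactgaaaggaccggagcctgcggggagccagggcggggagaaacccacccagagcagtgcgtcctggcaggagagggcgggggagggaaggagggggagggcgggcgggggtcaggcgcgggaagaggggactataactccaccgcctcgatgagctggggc
Isl1: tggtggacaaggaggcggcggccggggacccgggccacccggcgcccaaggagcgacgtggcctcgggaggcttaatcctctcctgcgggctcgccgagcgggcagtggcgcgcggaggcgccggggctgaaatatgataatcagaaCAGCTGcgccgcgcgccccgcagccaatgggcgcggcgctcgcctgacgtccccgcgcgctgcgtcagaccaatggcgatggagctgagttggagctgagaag
Ebf3: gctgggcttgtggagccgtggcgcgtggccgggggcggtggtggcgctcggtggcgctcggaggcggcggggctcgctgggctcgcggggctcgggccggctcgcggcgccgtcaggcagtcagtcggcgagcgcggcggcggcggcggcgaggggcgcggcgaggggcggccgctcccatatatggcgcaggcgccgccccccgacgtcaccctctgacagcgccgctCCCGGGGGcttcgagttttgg
Dlx2: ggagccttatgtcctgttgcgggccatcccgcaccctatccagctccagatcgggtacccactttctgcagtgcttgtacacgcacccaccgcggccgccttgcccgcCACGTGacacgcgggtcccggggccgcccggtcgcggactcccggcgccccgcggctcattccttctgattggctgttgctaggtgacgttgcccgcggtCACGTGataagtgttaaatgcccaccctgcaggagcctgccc

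The E-box is the site of basic helix-loop-helix factors such as Atoh7. In these windows Pou4f1 and Dlx2 each had 2 E-boxes, Isl1 had 1, and no E-box was found in those of Pou4f2 and Ebf3. Over windows of 300 bases that also held the 50 bases after the start, 4 of the 8 member promoters had an E-box, against 72.3% of the 32851 promoters in the table. TAATTA was found in 0 of the 8, against 5.29% of all promoters. The EBF core was found in 1 of the 8, that of Ebf3 itself, against 13.7% of all promoters. The letters CANNTG occur in most promoters, so these matches only describe the windows.

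Every one of the 9 genes was lower in mature than in embryonic retina. The mean of P15, P28 and P60 (14 libraries) was compared with the mean of E14 and E17 (6 libraries) in a limma fit of log2(CPM + 1) to all 27 libraries, and a gene was called when its Benjamini-Hochberg adjusted p was under 0.05 and its log2 fold change was 1 or more in size. All 9 members passed the filter on low values and all 9 were called lower, against 16.1% of the 31760 features tested. Dlx1 and Dlx2 passed the filter through E14, E17 and P1, where they are high. In mature libraries they reached at most 1.004 and 0.133 CPM, so they could be called lower but not higher. The median log2 fold change of the 9 members was -2.33, beside -0.06 over all features. On this scale the largest differences were those of Dlx1 (-4.70, SE 0.150), Pou4f2 (-3.36, SE 0.113) and Dlx2 (-3.32, SE 0.0989). Their order depends on the pseudocount: with 0.1 in place of 1, Dlx1 was at -7.37, Dlx2 at -6.39 and Pou4f2 at -3.56, and in edgeR Dlx2 was at -8.60, Dlx1 at -7.43 and Pou4f2 at -3.46. The smallest differences were those of Isl1 (-1.01, SE 0.0665) and Pou4f3 (-1.09, SE 0.202). In 7 of the 9 genes, the exceptions being Isl1 and Pou4f3, every mature library was below every embryonic library, as was so for 23.0% of all features. Dlx1 and Dlx2 are among the 7, and the same limit of the filter holds for them. Because a CPM value is a share of all RNA in the tissue, fewer cells of a type and less RNA per cell cannot be told apart, and a share also falls as RNA of other cells is added. Leaving the 26 photoreceptor genes out of the library total moved the members' log2 fold changes by at most 0.07. At P60 these genes held only 4.97% to 5.66% of reads, so their removal could shift the values only slightly. All other RNA of added cells stayed in the total, and its effect was not tested. With the 26 genes left out Isl1, at -0.94, no longer met the minimum fold.

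**Figure D1:**
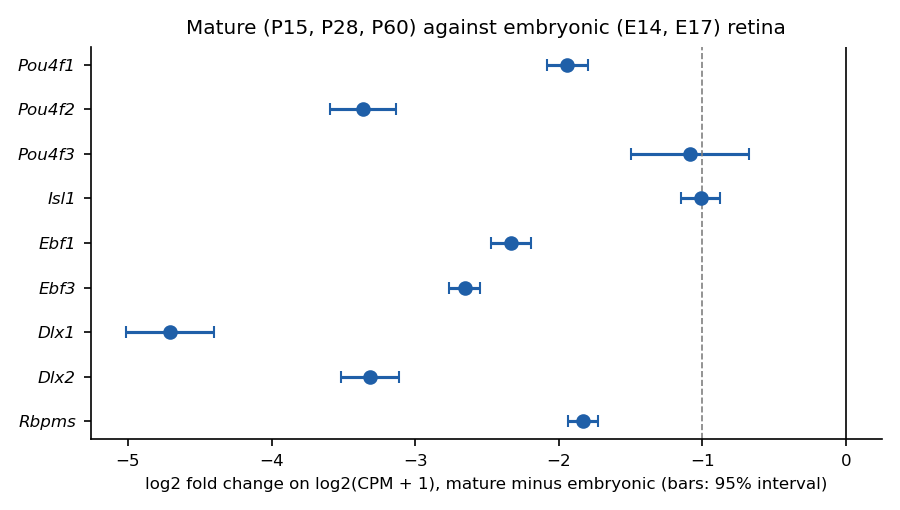
Log2 fold change of each of the 9 genes between mature (P15, P28, P60; 14 libraries) and embryonic (E14, E17; 6 libraries) retina, on the log2(CPM + 1) scale, with 95% intervals from limma. All 9 points lie below 0; the intervals of Isl1 (-1.15 to -0.88) and Pou4f3 (-1.50 to -0.68) cross the dashed line at -1, the minimum fold for a call.

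Called decreases were spread over the 3 steps up to P6 and absent from the later steps. Between E14 and E17, 4 members were called lower (0.702% of all features) and 1 higher (2.90%). Between E17 and P1, 6 were called lower (0.614%) and 0 higher (1.23%). Between P1 and P6, 5 were called lower (6.74%) and 1, Isl1, higher (6.30%). From P6 onward 0 of 9 were called at any step, where 8.05%, 0.384% and 0.453% of features were called in either direction for P15, P28 and P60 against the age before. Over these later steps 4, 0 and 4 members had an adjusted p under 0.05 with a fold below the minimum (33.4%, 2.72% and 12.9% of features had such a p at any fold), 5, 1 and 5 had an unadjusted p under 0.05, and edgeR called 0 at each. An F test over the 7 ages called all 9 members, as it did 83.0% of features.

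**Figure D2:**
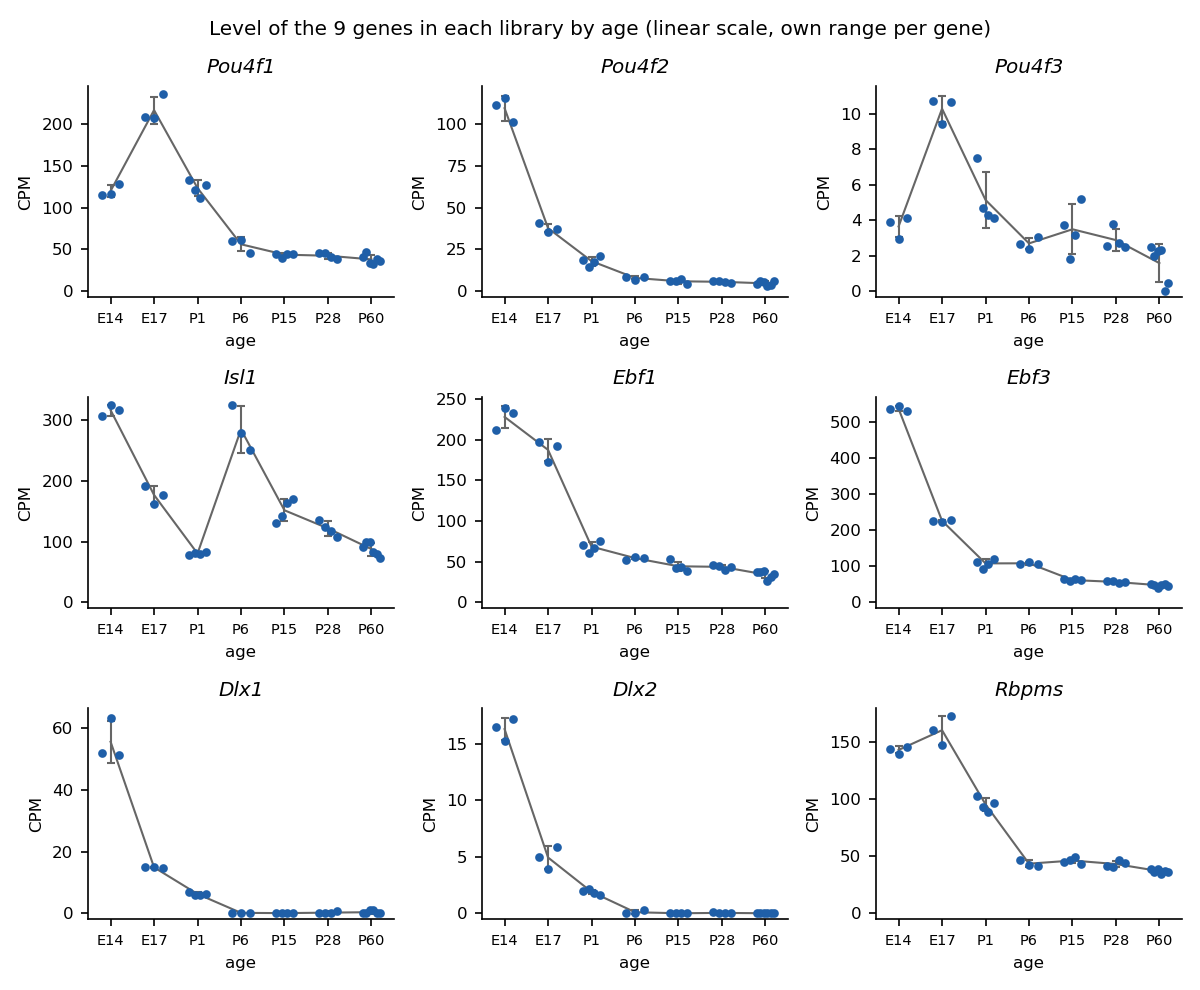
CPM of the 9 genes in each of 27 libraries (points) with the mean and SD of each age (line and bars), linear axes with a separate range per gene. Pou4f1 and Pou4f3 are highest at E17, Rbpms is about level at E14 and E17, Isl1 has a second maximum at P6, and Dlx1 and Dlx2 are at or near 0 from P6.

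Pou4f2, the POU factor that acts earliest in ganglion cell differentiation (chr8:78433009-78436647, minus strand), was highest at E14, with 111, 116 and 101 CPM in the 3 libraries. The values were 40.5, 35.5 and 37.1 CPM at E17, and 18.5, 14.7, 17.4 and 21.3 CPM at P1. At P6 they were 8.48, 6.92 and 8.55 CPM. No age up to P6 overlapped another, and each step was called: log2 fold changes were -1.51 to E17 (SE 0.188, adjusted p = 3.43e-07), -1.03 to P1 (SE 0.176, adjusted p = 9.51e-05) and -1.07 to P6 (SE 0.176, adjusted p = 8.14e-06). The later steps were close to the minimum fold: the step to P1 was -0.97 with the replicate number as a block, -0.98 without E17 replicate 1 and -0.95 without P1 replicate 2, and that to P6 was -0.99 without either P1 replicate 4 or P6 replicate 2. Pou4f2 then stayed low, with 6.02, 6.19, 7.54 and 4.12 CPM at P15, 6.00, 6.18, 5.28 and 5.15 CPM at P28, and a lowest, median and highest value of 2.98, 4.79 and 5.91 CPM at P60. These last 3 ages overlapped and no step among them was called, and the P60 mean was 4.32% of the E14 mean.

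Pou4f1, a paralog expressed in many ganglion cell subtypes (chr14:104461675-104468118, minus strand), peaked later. It was at 115, 117 and 128 CPM at E14 and at 208, 207 and 235 CPM at E17. All E17 libraries were above all E14 libraries, with a log2 difference of 0.85 (SE 0.117, adjusted p = 2.23e-06) that was below the minimum fold. At P1 the values were 133, 122, 112 and 127 CPM, overlapping those of E14 (adjusted p = 0.845 between the 2 ages). It fell by 1.13 on the log2 scale to P6 (SE 0.109, adjusted p = 4.06e-10), where the libraries were at 60.6, 61.5 and 46.2 CPM; without P6 replicate 3, the lowest, it was -0.9996 and just under the minimum fold. P15 libraries were at 44.6, 40.3, 45.0 and 44.9 CPM and P28 libraries at 45.4, 45.4, 40.9 and 38.0 CPM. At P60 the lowest, median and highest values were 32.7, 37.0 and 46.9 CPM. Among P15, P28 and P60 no neighbours in the order of levels passed the test, and the P60 mean was 17.6% of the E17 mean.

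Pou4f3, the paralog on chromosome 18 that is used by a smaller set of ganglion cells, was the least abundant of the family. It was at 3.90, 2.95 and 4.10 CPM at E14 and at 10.7, 9.44 and 10.7 CPM at E17, without overlap. The rise was called (log2 fold change 1.28, SE 0.336, adjusted p = 0.00894), but without E14 replicate 2 the adjusted p was 0.0561 and with a pseudocount of 0.1 it was 0.229. P1 libraries were at 7.48, 4.66, 4.30 and 4.14 CPM, P6 libraries at 2.68, 2.38 and 3.03 CPM, and P15 libraries at 3.75, 1.84, 3.16 and 5.22 CPM. P28 libraries were at 2.53, 3.79, 2.71 and 2.51 CPM. At P60 the lowest, median and highest values were 0, 2.12 and 2.49 CPM, and 1 library had 0 reads, which allows up to 3 by counting error. Apart from E17 against E14, no step of Pou4f3 passed the test, and no neighbours in its order of levels passed. In particular, its E14 mean of 3.65 CPM did not pass against its P15 mean of 3.49 CPM (limma adjusted p = 0.801). The lower level of Pou4f3 in mature retina, for which E14 and E17 were pooled, was -0.95 with the replicate number as a block, under the minimum fold.

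Isl1, the LIM-homeodomain partner of Pou4f2 (chr13:116298270-116309688, minus strand), was the only member called higher after birth. The E14 libraries were at 308, 326 and 317 CPM, the E17 libraries at 192, 162 and 177 CPM, and the P1 libraries at 77.4, 81.9, 79.7 and 82.1 CPM. These ages did not overlap, and the decrease to P1 was called (-1.13, SE 0.104, adjusted p = 1.69e-09), while that to E17 was -0.84 (adjusted p = 9.66e-07), below the minimum fold. At P6 Isl1 was at 326, 279 and 250.4 CPM, all above every P1 library. The rise of 1.81 on the log2 scale (SE 0.104, adjusted p = 1.72e-15) brought it to a level whose difference from E14 did not pass the test (adjusted p = 0.232). From there values went to 131, 142, 163 and 170.3 CPM at P15 and 136, 125, 118 and 108 CPM at P28, with a lowest, median and highest value of 73.1, 87.0 and 99.6 CPM at P60. The step to P15 was -0.91 (adjusted p = 2.68e-08) and that to P60 was -0.47 (adjusted p = 0.00237), both below the minimum fold.

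Most markers of ON bipolar cells, which also use Isl1, rose over the same interval. Of 11 tested markers of these interneurons, which respond to light increments, 8 were called higher and 0 lower at P6 against P1. These calls compare with 6.30% and 6.74% of all features. A further 1 was lower at an adjusted p under 0.05, with a fold below the minimum. Other cell types rose at this step too: 26 of 26 photoreceptor and 3 of 8 horizontal cell markers were called higher and 0 lower. Of 11 other amacrine markers, 1 was called higher and 3 lower. The summed level of the ON bipolar markers went from 364 to 417 CPM at P1 to 1057 to 1337 CPM at P6. Grm6, the glutamate receptor of these cells, went from a mean of 0.274 CPM (SD 0.318, n = 4) to 140.3 CPM (SD 20.7, n = 3), and Trpm1, the channel it controls, from 1.91 CPM (SD 0.885) to 141 CPM (SD 41.0). The summed level of 6 starburst amacrine markers went from 194 to 216 CPM at P1 to 84.7 to 92.4 CPM at P6, but most of that sum at P1 was the progenitor and glial factor Sox2 (-2.14 on the log2 scale), the only one called lower. Without Sox2, left out after its values were seen, the sum went from 68.4 to 81.1 CPM to 56.8 to 61.8 CPM, and the choline transporter Slc5a7 was called higher (1.83). Megf10 went the other way, at -0.58 (limma adjusted p = 5.32e-05), below the minimum fold. Chat (0.16), Slc18a3 (-0.18) and Slc10a4 (-0.01) did not pass the test. The part of either cell type in the rise of Isl1 was not tested. From embryonic to mature retina the call for Isl1 rested on the minimum fold: with the replicate number as a block it was -0.97, with median-of-ratios scaling -0.93 and in edgeR -0.91, each with the same direction and an adjusted p under 0.05. It was also under the minimum fold without E17 replicate 1 (-0.98) and without P15 replicate 1, P28 replicate 4 or P60 replicate 6 (-0.99 each).

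The Ebf factors, helix-loop-helix proteins that act in the differentiation of several neuron types, had called decreases at 2 steps for Ebf3 and at 1 for Ebf1. Ebf3 (chr7:137193671-137322805, minus strand) was at 535, 543 and 531 CPM at E14 and at 226, 222 and 229 CPM at E17. At P1 it was at 111, 92.9, 107 and 120.3 CPM and at P6 at 107, 112 and 105 CPM. Each age was below the one before up to P1, with called log2 fold changes of -1.25 (SE 0.0883, adjusted p = 2.01e-12) and -1.07 (SE 0.0826, adjusted p = 3.79e-11), and P1 and P6 overlapped (0.01, adjusted p = 0.95). Without P1 replicate 2 the step to P1 was -0.999 and just under the minimum fold. Ebf3 was at 63.2, 57.5, 63.4 and 61.6 CPM at P15, at 58.2, 57.6, 53.7 and 54.9 CPM at P28, and at a lowest, median and highest value of 39.6, 46.8 and 51.2 CPM at P60. The step to P15 was -0.80 (adjusted p = 3.43e-09), below the minimum fold, and the P60 mean was 8.75% of the E14 mean. Exons of Ebf3 overlap those of Gm45278 on the opposite strand, and reads there cannot be assigned to either gene.

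Ebf1 (chr11:44618100-45008096, plus strand) was at 212, 238 and 233 CPM at E14 and at 197, 172 and 192 CPM at E17. Every E17 library was below every E14 library, but the difference of -0.28 did not pass the test (adjusted p = 0.135, 95% interval -0.52 to -0.05 before adjustment). Over the alternatives other than left-out libraries the limma or edgeR adjusted p ran from 0.0159, when only libraries of the compared ages were fitted, to 0.153. At P1 the libraries were at 70.9, 61.1, 66.7 and 74.9 CPM, all below E17. This was its only called step (-1.44, SE 0.108, adjusted p = 1.79e-11). Values were 52.4, 55.5 and 54.9 CPM at P6, 52.6, 42.3, 43.1 and 38.9 CPM at P15, and 46.1, 44.8, 39.6 and 43.5 CPM at P28. At P60 the lowest, median and highest values were 26.5, 35.7 and 38.0 CPM, and the mean was 14.9% of that at E14. A second entry for Ebf1 held 5.67 CPM (SD 0.654, n = 3) at E14, and adding it changed no call.

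Dlx1 and Dlx2, neighbouring homeobox genes on chromosome 2 (chr2:71528113-71533981, plus strand, and chr2:71543408-71546754, minus strand), went to the limit of detection. Dlx1 was at 52.1, 63.4 and 51.4 CPM at E14, at 15.03, 14.9 and 14.7 CPM at E17, and at 6.99, 5.80, 5.88 and 6.27 CPM at P1. These ages did not overlap and both steps were called (-1.83, SE 0.249, adjusted p = 1.82e-06, and -1.14, SE 0.233, adjusted p = 0.00103). At P6 the 3 libraries held 0 to 2 reads of Dlx1, and the step was called (-2.70, SE 0.233, adjusted p = 3.45e-11). From P15 to P60 all 14 libraries were at 0 to 8 reads, the highest value being 1.004 CPM. Over the 6 embryonic libraries 2068 reads were counted and over the 14 mature libraries 24, a ratio of 155 relative to the total of counted reads (exact 95% interval for counting error only, 104 to 243).

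Dlx2 followed the same course at a lower level, with 16.5, 15.2 and 17.2 CPM at E14, 5.01, 3.88 and 5.90 CPM at E17, and 1.96, 2.14, 1.81 and 1.66 CPM at P1. The ages did not overlap, and the steps of -1.56 (SE 0.165, adjusted p = 1.47e-08), -1.02 (SE 0.154, adjusted p = 1.55e-05) and, to P6, -1.41 (SE 0.154, adjusted p = 5.19e-09) were called. With a pseudocount of 0.1 the step of Dlx1 to E17 did not pass (adjusted p = 0.154), nor did the step to P1 of either gene (adjusted p = 0.408 for Dlx1 and 0.0612 for Dlx2). The step of Dlx2 to P1 was -0.91 without E17 replicate 3 and -0.98 without P1 replicate 4. Dlx2 held 0 to 2 reads per library at P6 and 1 read in all 14 mature libraries together, against 622 in the 6 embryonic ones. The ratio relative to the total of counted reads was 1121 (exact 95% interval for counting error, 200.5 to 44365), and fitted log2 fold changes of both genes depend on the pseudocount. Of 10 markers of proliferating progenitors, 1 was called lower at E17 against E14 and 2 at P1 against E17, the steps over which both Dlx genes first fell, and all 10 at P6 against P1. Their median summed level was 5947 CPM at E14, 5121 CPM at E17, 4612 CPM at P1 and 203 CPM at P6. The part of progenitors in the decrease of the Dlx genes was not tested. Exons of Dlx1 overlap those of the antisense gene Dlx1as, which was at 19.2 CPM (SD 4.06, n = 3) at E14, 4.41 CPM at E17 and 2.28 CPM at P1; strand was not stated for the counting, so reads in the overlap cannot be assigned to either gene.

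Rbpms (chr8:33782643-33929922, minus strand), which in the retina marks nearly all ganglion cells and is no transcription factor, was at 144, 139.8 and 146 CPM at E14 and at 161, 148 and 173 CPM at E17. The difference between E14 and E17 did not pass the test (0.16, adjusted p = 0.302, 95% interval -0.01 to 0.34). P1 libraries were at 103, 93.5, 89.1 and 96.3 CPM, all lower, with a difference of -0.74 (adjusted p = 4.70e-08) below the minimum fold. Rbpms fell by 1.12 to P6 (SE 0.0804, adjusted p = 4.46e-13), to 46.8, 42.4 and 41.1 CPM. It was then at 44.8, 47.0, 49.3 and 43.6 CPM at P15, and 41.3, 40.7, 46.7 and 43.7 CPM at P28. At P60 the lowest, median and highest values were 34.6, 36.7 and 38.6 CPM. Among P6, P15 and P28 no neighbours in its order passed, P60 was slightly lower (-0.22, adjusted p = 0.0339), and the P60 mean was 23.0% of the E17 mean.

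**Figure D3:**
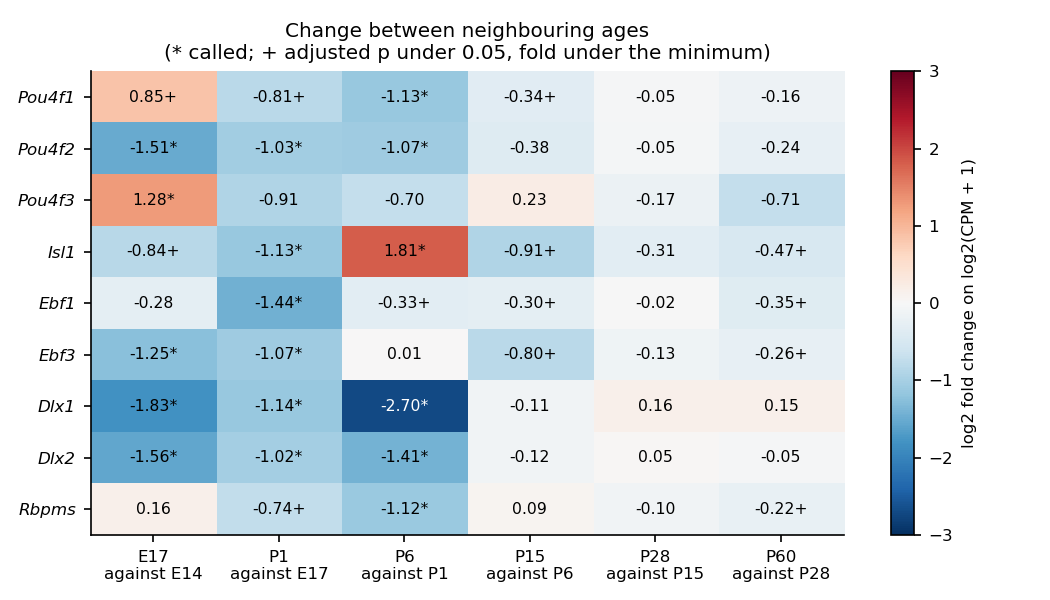
Log2 fold change of each gene (rows) between neighbouring ages (columns) on the log2(CPM + 1) scale, with color from -3 to 3; * marks a call and + an adjusted p under 0.05 with a fold below the minimum. All called decreases stand in the first 3 columns, Pou4f3 at E17 (1.28) and Isl1 at P6 (1.81) are the called increases, and no * stands in the last 3 columns.

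Levels were compared between genes after division by exon length. At E14 the order in mean CPM per kilobase of exon was Isl1 (80.1), Ebf3 (58.1), Pou4f2 (34.1), Pou4f1 (25.7), Ebf1 (23.3), Rbpms (21.8), Dlx1 (10.3), Dlx2 (5.70) and Pou4f3 (1.52). At E17 Pou4f1 led with 46.4, close to Isl1 with 44.7, and Pou4f2 had dropped to 11.8. At P60 Isl1 led with 22.1, followed by Pou4f1 with 8.14, Rbpms with 5.62, Ebf3 with 5.08, Ebf1 with 3.49 and Pou4f2 with 1.47, and Pou4f3 was at 0.662. On this scale the POU gene with the highest mean was Pou4f2 at E14 and Pou4f1 at E17 and P60. In CPM not divided by length Pou4f1 had the higher mean also at E14 (119.9 against 109.3 CPM), and the order between genes was not tested.

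Ratios of 2 members within a library were used to compare the members with each other. The library total cancels in a ratio of CPM, but 1 CPM was added to each gene, so for low genes such as Dlx2 and Pou4f3 these ratios depend in part on the total. The log2 ratio of CPM + 1 was tested for all 36 pairs between the 6 embryonic and 14 mature libraries with an exact two-sided permutation test (38760 permutations, smallest possible p of 5.16e-05), adjusted over the 36 pairs. Of these, 32 differed at an adjusted p under 0.05, and of the 21 pairs that do not include Dlx1 or Dlx2, whose mature ratios are set by the pseudocount, 18 did. The test exchanged single libraries across the pooled ages, so libraries of the same age counted as independent. Some ratios also differed between the ages of a group, and the p-values do not measure the spread between ages. When E17 was compared with P60 alone, with 3 against 6 libraries, 20 of the 36 differed. That comparison leaves out E14, P15 and P28 together and has fewer libraries, and which of these lowered the count was not tested.

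Against Rbpms, Pou4f2 was lower by 1.53 in mature retina (adjusted p = 0.000124), Ebf3 by 0.83 (adjusted p = 0.00220) and Ebf1 by 0.51 (adjusted p = 0.000516). In whole retina the RNA of these 3 factors decreased by more than that of Rbpms did. Which cells made the Rbpms RNA at each age, and levels per ganglion cell, were not tested. With E17 against P60 only, the differences were -0.69 for Pou4f2 and -0.34 for Ebf1 (adjusted p = 0.0429 each) but -0.16 for Ebf3 (adjusted p = 0.143). Isl1 was higher relative to Rbpms by 0.79 (adjusted p = 0.00220) and Pou4f3 by 0.69 (adjusted p = 0.0439). With E17 against P60 only, Isl1 was higher by 1.08 (adjusted p = 0.0429), while Pou4f3 was at -0.17 (adjusted p = 0.882). The difference of Pou4f3 also did not pass when any of 14 of the 20 libraries was left out, with an adjusted p of up to 0.127 without E14 replicate 2. The ratio of Pou4f1 to Rbpms did not pass the test (-0.10, adjusted p = 0.427), with an embryonic mean of 0.09 (SD 0.38) and a mature mean of -0.01 (SD 0.17), but from E17 to P60 alone the difference was -0.40 (adjusted p = 0.0429). The ratio of Ebf1 to Ebf3 (0.32, adjusted p = 0.0794) and that of Pou4f3 to Isl1 (-0.09, adjusted p = 0.800) did not pass either. Pou4f2 against Pou4f1 was lower in mature retina, with the log2 ratio of Pou4f1 to Pou4f2 going from 1.31 (SD 1.30) to 2.74 (SD 0.25; adjusted p = 0.00299). From E17 to P60 alone that ratio differed by 0.30 and did not pass (adjusted p = 0.274).

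Age by age, these ratios changed at distinct steps. The log2 ratio of Pou4f2 to Rbpms went from -0.39 (SD 0.13, n = 3) at E14 to -2.06 (SD 0.12, n = 3) at E17 and was between -2.31 and -2.78 at later ages. That of Pou4f1 to Rbpms was -0.26 at E14, 0.43 at E17, 0.36 at P1, 0.35 at P6 and within 0.08 of 0 from P15. Ebf3 relative to Rbpms was 1.90 at E14, 0.49 at E17 and 0.17 at P1, and was higher at P6 with 1.29 (SD 0.10, n = 3) before 0.40 at P15. Isl1 relative to Rbpms was 1.14 at E14, -0.25 (SD 0.11, n = 4) at P1, 2.68 (SD 0.10, n = 3) at P6 and 1.22 (SD 0.16, n = 6) at P60. At P6 Rbpms itself had fallen, so a ratio to it is higher there also for a gene whose own CPM was as at P1, such as Ebf3.

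**Figure D4:**
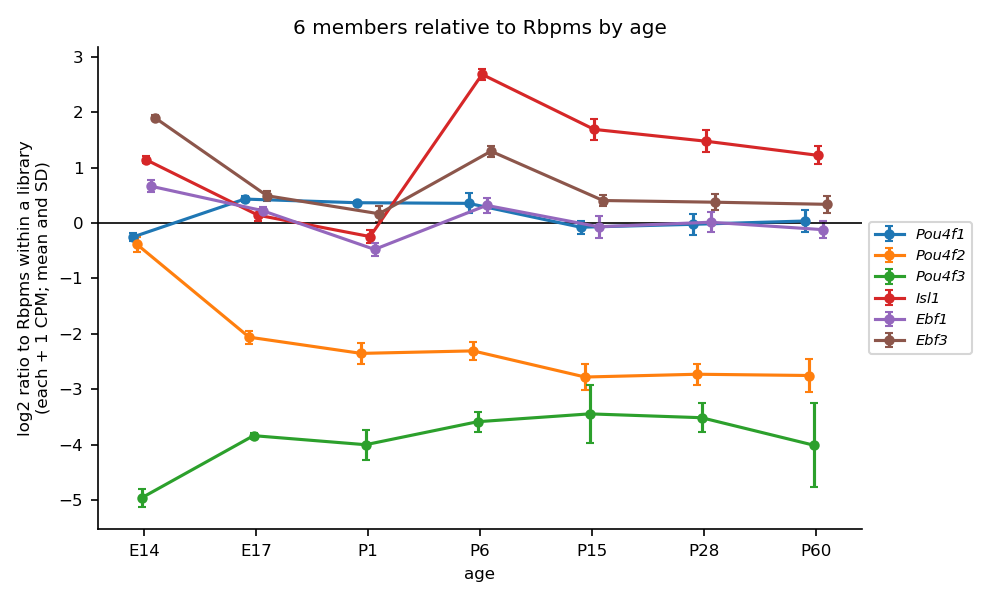
Log2 ratio of 6 transcription factors to Rbpms within a library (1 CPM added to each gene), as mean and SD of the 3 to 6 libraries of an age. Pou4f2 drops from -0.39 to -2.06 between E14 and E17 and Isl1 moves from -0.25 at P1 to 2.68 at P6, while Pou4f1 stays within 0.43 of 0.

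Other genes of the ganglion cell pathway were counted in the same fit for mature against embryonic retina. Of 12 regulators upstream of or beside the members, 10 were called lower and 1 higher (16.1% and 14.9% of features), with a median log2 fold change of -3.04. Sox11, a factor of immature neurons, fell by 7.35. Atoh7 fell by 6.34, and its mean went down from 197 CPM (SD 7.45) in the 3 E14 libraries to 0.437 CPM (SD 0.464) in the 6 of P60. Neurod1, a bHLH factor also used by photoreceptors and amacrine cells, rose by 1.04. Of 18 transcription factors of ganglion cell subtypes, 14 were called lower and 1 higher, with a median of -1.97. Pou3f1 (-4.03) and Zic1 (-3.51) had the largest decreases, and Eomes (Tbr2), a factor of melanopsin ganglion cells, fell by 2.11. Neurod2 rose (3.04 on this scale), from 0 CPM in all E14 libraries to 12.2 CPM (SD 1.27, n = 6) at P60. Which cells made the RNA of these regulators and subtype factors was not tested.

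Products of ganglion cells moved in both directions. Of 21 such genes 9 were called lower and 7 higher, with a median of -0.65. Gap43, a growth cone protein, fell by 3.88, and Elavl4, an RNA-binding protein of young neurons, fell by 3.27. Nefh, the heavy neurofilament subunit, rose by 4.56. The 3 E14 libraries averaged 1.37 CPM (SD 0.387) and the 6 P60 libraries 59.8 CPM (SD 5.61). Chrna6, a nicotinic receptor subunit, rose by 4.38. Shh, a signal that ganglion cells send to progenitors, was at -0.94, below the minimum fold. Many of these products are also made by other retinal neurons, and their source was not tested.

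Of 11 tested partners and paralogs of the members, 4 were called lower and 2 higher, with a median of -0.32. The paralog Ebf2 fell by 2.25, and Isl2, the paralog of Isl1 found in a subset of ganglion cells, fell by 1.99 with its highest mean, 21.6 CPM (SD 2.33, n = 3), at E17. The LIM-homeodomain genes Lhx4 (1.51) and Lhx3 (1.34) were called higher. Both were at their highest mean at P6, the age of the second Isl1 peak, with 82.1 CPM (SD 6.07, n = 3) for Lhx4 and 8.13 CPM (SD 1.24, n = 3) for Lhx3.

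Markers of other cells in the tissue gave these counts for mature against embryonic retina. Called higher were 26 of 26 photoreceptor, 9 of 11 ON bipolar, 5 of 8 horizontal, 5 of 11 other amacrine, 3 of 6 starburst, 5 of 13 vessel and 5 of 9 tested retinal pigment epithelium genes. Called lower were 10 of 10 progenitor, 2 of 8 horizontal, 2 of 11 other amacrine, 1 of 6 starburst, 1 of 5 tested lens and 2 of 5 tested optic nerve oligodendrocyte genes. Lens markers summed to at most 13.1 CPM in any library, and pigment epithelium markers went from 6.43 to 10.7 CPM at E14 to 129 to 176 CPM at P60. What these cells contribute to the members' levels was not tested.

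The features whose profiles over the 27 libraries were most like each member were found by the Pearson r of log2(CPM + 1), as a description. Libraries share their age, so r mostly reflects the course over age. Pou4f2 was most like Fign (r = 0.983), Tenm3 (0.983) and Atoh7 (0.982). Dlx1 was closest to Crabp2 (0.987), Grb10 (0.982) and Atoh7 (0.981), and Dlx2 to Tenm3 (0.986), Atoh7 (0.984) and Crabp2 (0.982). Ebf3 was near to Dcc (0.989), a netrin receptor, and Elavl4 (0.984). Ebf1 was nearest to 9630023C09Rik (0.980), Onecut1 (0.973) and Ina (0.972). Pou4f1 was most like D130079A08Rik (0.979), Psip1 (0.971) and Foxp2 (0.969), and Rbpms like Aldh1a3 (0.988), Ston2 (0.981) and Srgap1 (0.977). The nearest features of Pou4f3, Cd200 (0.854), Pcyt1b (0.850) and Adamts19 (0.846), and of Isl1, Pakap (0.930), Zfhx4 (0.902) and Akap2 (0.900), were less close.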

How the data were processed

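The authors made SMARTer total RNA libraries from dissected retinas, sequenced them single-end and aligned them to mm10 (GRCm38) with STAR, per the labels and the study's methods. They deposited 1 table of CPM, in which reads are scaled to the library total; the counting annotation and its use of strand are not given in the sources used here. The labels state 3 retinas per library, whereas the methods describe larger pools and, at P60, some single mice, and which libraries these are is not given. P-values measure the spread between libraries. All values came out as whole multiples of 1 read (100.0%, within 0.05 of a whole read), except that E14 replicate 1 could not be judged by an automatic test.

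Groups are the ages of the labels. The deposited CPM were put on the log2(CPM + 1) scale. Features that reached 1 CPM in 3 or more libraries entered a limma 3.58.1 fit (R 4.3.3, trended variance) of all 27 libraries. Tests were two-sided and adjusted over all features tested, and fold changes on this scale understate those of low genes. Exons, overlaps, chromosomes and strands are from GENCODE for GRCm38, and gene start and end coordinates are from RefSeq for GRCm38.p6. Permutation tests used numpy 2.4.6 in Python 3.11.15. The permutation code was checked on random values against scipy 1.17.1, which also gave the exact intervals. Tables used pandas 2.3.3 and figures matplotlib 3.10.9. The 9 members and 14 gene lists were chosen with earlier results of these data known. Named genes are the members, the 3 features most like each member (mean CPM of at least 5, with a Gene ID), and in the 4 lists of the ganglion cell pathway the 2 largest called rises and falls plus Atoh7, Sox11, Eomes and Shh; in the ON bipolar and starburst lists, Grm6, Trpm1, Slc5a7 and Sox2 were chosen after their values were seen. Alternatives were a pseudocount of 0.1, no filter, a filter at a mean of 10 CPM, median-of-ratios scaling, photoreceptor genes left out of the total, the replicate number as a block, edgeR 4.0.16 on reads recovered from the CPM (TMM scaling), fitting only the compared ages, no minimum fold, summed entries of a symbol, and each library left out; edgeR without E14 replicate 1 was added after the data were seen. Fits were tested on simulated data. 1 of the features named by this rule is not reported here.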

Additional observations from a re-analysis of the deposited data

Results flagged for a closer look

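Among the 36 combinations of a member with an age of 4 to 6 libraries, 6 had a library set apart from the others of its age by Dixon's test at the 95% level. Chance alone flags about 1 in 20 groups, but this rate does not hold for Dlx1 and Dlx2. Where all other libraries are at 0, any read is flagged, and a group wholly at 0 cannot be flagged. Pou4f1 was at 40.3 CPM in P15 replicate 2, where the other 3 libraries were at 44.6 to 45.0 CPM. Pou4f3 was at 7.48 CPM in P1 replicate 1 against 4.14 to 4.66 CPM in the other 3, and at 3.79 CPM in P28 replicate 2 against 2.51 to 2.71 CPM. Without P1 replicate 1 the decrease of Pou4f3 from E17 to P1 met both thresholds (-1.07, adjusted p = 0.0411). Dlx1 was at 0.122 CPM in P15 replicate 3 and at 0.754 CPM in P28 replicate 4, and Dlx2 at 0.133 CPM in P28 replicate 1, with 0 in the other libraries of each age; these values are 1, 6 and 1 reads.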

How the results depend on the processing

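The count of members called for mature against embryonic retina was 9 and ran from 6 to 9 over the alternatives; with a mean CPM of at least 10 only 6 members were tested, and Isl1 dropped below the minimum fold under 5 others. For E17 against E14 it was 5, but 3 with a pseudocount of 0.1 and 2 with a mean CPM of at least 10. With no minimum fold it was 4 for both P15 against P6 and P60 against P28, in place of 0. Pairs whose ratio differed numbered 32, but 20 with E17 against P60 only. Leaving out each library in turn gave 8 to 9 members for mature against embryonic retina, 4 to 5 for E17 against E14, 4 to 7 for P1 against E17, 5 to 6 for P6 against P1, 0 at the 3 later steps, 9 in the F test and 29 to 32 pairs.

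Replicate numbers were shared between ages but did not pair libraries (20 pairs, r from -0.10 to 0.09, 6 closest to their own number). With the replicate block 7 members were called for mature against embryonic retina, Isl1 (-0.97) and Pou4f3 (-0.95) falling below the minimum fold.

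Of fold changes between neighbouring ages, those that changed sign were near 0 and called in neither setting. With each library left out in turn, Ebf3 for P6 against P1 ran from -0.059 to 0.064. For P28 against P15 the ranges were -0.083 to 0.0054 for Pou4f1, -0.19 to 0.059 for Pou4f2, -0.37 to 0.0083 for Pou4f3, -0.073 to 0.069 for Ebf1 and -0.041 to 0.23 for Dlx1, and Ebf1 was at 8.84e-05 with median-of-ratios scaling. With E17 against P60 only, 4 ratios that had differed changed sign and no longer passed: Pou4f1 over Ebf1 went from 0.41 (adjusted p = 0.0483, exact permutation test) to -0.054, Pou4f1 over Ebf3 from 0.73 (0.0420) to -0.24, Pou4f3 over Ebf3 from 1.52 (0.0109) to -0.017 and Pou4f3 over Rbpms from 0.69 (0.0439) to -0.17. Ebf1 over Ebf3, which had not passed, went from 0.32 to -0.19. The cause was not tested. Pou4f3 over Isl1 ran from -0.36 to 0.13 with each library left out. Pou4f2 over Dlx2 was 2.81 with a pseudocount of 0.1 (adjusted p = 9.78e-05), since mature Dlx2 is at 0. The order of ages and the counts of other lists were not recomputed. Depth limits Dlx1, Dlx2 and Pou4f3, at 0 to 8, 0 to 2 and 0 to 38 reads per library from P6.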
